A study of Mus musculus with 13 samples.

Results

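The transcripts described here are those measured well in mouse forebrain at the embryonic age E13.5, in the comparison of Atrx-null with wild type tissue. They were taken from Affymetrix mouse genome arrays, on which a probe set is a group of short probes that reads one transcript region. Probe sets whose mean signal over the 6 E13.5 arrays reached 100 were kept, which gave 15730 of 45037 probe sets other than controls, or 34.9%. Of these, 4 read Atrx itself. The other 15726, called members from here on, stand for 8907 genes. The choice used the mean signal over both genotypes and not the difference between them, although 486 members have a mean below 100 in either the Atrx-null or the wild type group. The member closest to the threshold, a probe set of Pbxip1, had a mean signal of 100.006 and a log2 fold change of 0.07, and the nearest probe set outside, of Tmem131l, had 99.987 and 0.30.

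The 3 Atrx-null and 3 wild type samples came from male E13.5 embryos of the strain C57BL/6 x 129/Sv, with RNA pooled from 2 forebrains for each array. Atrx-null embryos came from Atrx loxP females mated with males heterozygous for a Cre recombinase allele. Each Atrx-null sample has a wild type littermate sample with the same replicate number, called a pair here, and the sources used here do not say whether the wild type embryos carried Cre. The 7 newborn (P0.5) arrays, 3 wild type and 4 Atrx-null, helped to estimate the spread of each probe set. Pooling is stated for E13.5 only. The newborn Atrx-null arrays 2A and 2B share a replicate number and were counted as separate samples. The sources used here do not say whether they share an animal.

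ATRX is a chromatin remodelling enzyme of the SNF2 family that binds heterochromatin and, with its partner DAXX, deposits a variant of histone H3. At this stage of forebrain development many cells still divide. Radial glia and intermediate progenitors of the dorsal telencephalon produce glutamatergic neurons of the cortex, while progenitors of the ventral ganglionic eminences produce striatal neurons and the GABA-releasing interneurons that migrate into the cortex. Blood vessels, macrophages and the meninges that cover the brain come from other lineages. Because whole forebrain was measured, fewer cells of a type and less RNA per cell cannot be told apart.

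Atrx was lower on all 4 of its probe sets that met the signal threshold. The brightest read 1549, 1689 and 1553 in wild type forebrain, and 584, 678 and 566 in Atrx-null forebrain, so no array of either genotype overlapped the other. Its log2 fold change was -1.50 ± 0.24 (SE; limma adjusted p = 0.12), and those of the other 3 were -1.90, -1.61 and -1.49. The probe set at -1.90 fell (adjusted p = 0.0277, or 0.138 when blocked by littermate pair). Which of them read the deleted exons was not stated in the sources used. Regional markers matched the labelled tissue. The dorsal telencephalic genes Emx1, Emx2 and Lhx2 had signals of 366 to 527, 697 to 1212 and 1544 to 2165 over the 6 arrays, and the ventral gene Dlx2 had 327 to 773.

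Wild type replicate 2 stood apart from the other E13.5 arrays. In a fit that weights each array by its spread it had the lowest weight of the 6, 0.56, against 0.82 to 1.2 for the others, and it held the highest single signal, 5768. Of the calls described below, those of Shox2, Cbfa2t3, Lfng, Grik3, Sema3f, Tcf7l2, Ifitm3 and Epcam, of the dimmer probe sets of Pou3f2, Insm1, Sox4, E2f1 and Foxp1, and of both called Zfhx3 probe sets were lost without it, and further losses are given with the gene. The values are signals on a linear scale, of which the log2 was taken and the median of each array over all probe sets was subtracted. On this scale the median log2 fold change of the members was -0.11, with -0.13, -0.16 and -0.01 in pairs 1, 2 and 3, whereas it was 0.00 on the signals as deposited or after quantile normalization and -0.01 when each array was centred on probe sets with a mean signal of 100 or more. Changes are therefore read against -0.11 for members, and against -0.10 for the 8907 genes, each represented by its brightest probe set. Of these genes 70 were called (0.786%), 25 higher (0.281%) and 45 lower (0.505%). Calls of Lfng, Cbfa2t3, the dimmer Pou3f2 and Sox4 probe sets and the Zfhx3 probe set at -0.61 were lost under each other scaling.

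Few well-measured transcripts differed between the genotypes. At the thresholds the study used, an unadjusted p below 0.05 together with 1.5-fold or more, 134 of 15726 members were called (0.852%), with 36 higher (0.229%) and 98 lower (0.623%) in Atrx-null forebrain. At 2-fold the count was 21 (0.134%). Of the 134 calls, 26 have a mean below 100 in either genotype, as do 486 of the 15726 members. An unadjusted p below 0.05 alone was reached by 532 members, or 3.38%. In a single case the adjusted p was under 0.05 (0.00636%), a probe set of Cd99. Among the calls 26.9% were higher, a split that turned to 58.5% after quantile normalization, 68.1% on the signals as deposited and 63.8% with centring on the well-measured probe sets. The study applied its thresholds after RMA preprocessing to probe sets of any signal, and reported that most altered probe sets were higher. In the words used here a gene "fell" or "rose" only past an adjusted p of 0.05, and "higher" and "lower" mark calls at the study thresholds or give a direction alone. The same direction in all 3 pairs was seen for 32 of the 36 higher and 93 of the 98 lower calls, against 33.7% of all members. Groups that did not overlap were found for 298 members higher (1.89%) and 1822 lower (11.6%), against 4.49% and 6.89% of all 45030 probe sets. Overlap was read on the median-centred values, which carry the shift of -0.11. The count of calls depended on single arrays. It was 100 without wild type replicate 2, with 46 higher and 54 lower, but 298 and 315 without wild type replicates 1 and 3, and 213 and 331 without Atrx-null replicates 1 and 3.

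The size of the shift depended on how bright a transcript was. Members with a mean signal of 100 to 200 had a median log2 fold change of -0.05, those from 800 to 1600 had -0.16, and the 819 members at 1600 or more had -0.25. This slope was not shared by the pairs. The brightest members had medians of -0.27 in pair 1 and -0.58 in pair 2, but 0.14 in pair 3. Lists of bright transcripts carry this shift, and its part in their values was not tested.

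**Figure D1:**
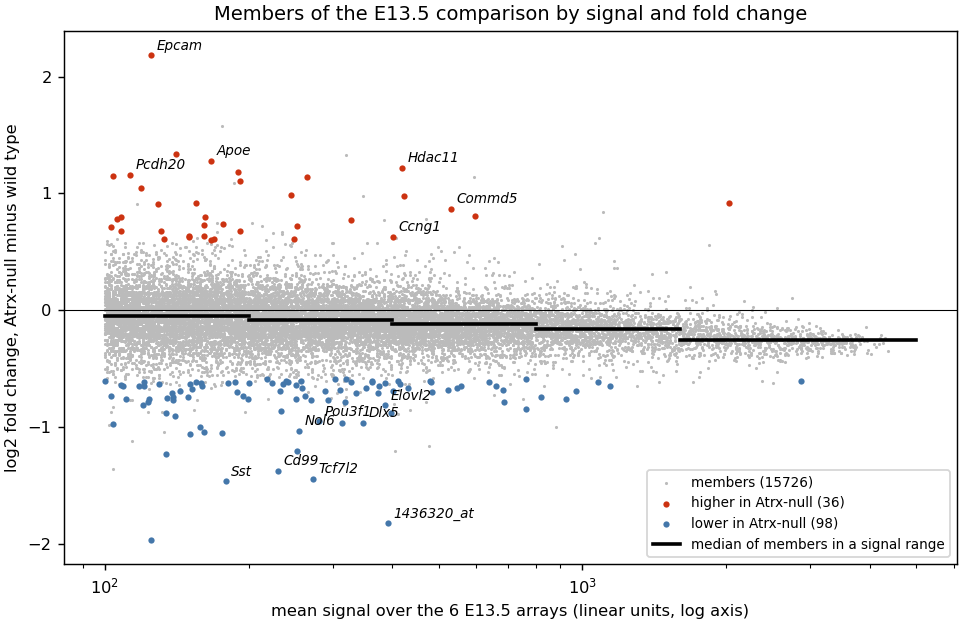
Log2 fold change (Atrx-null minus wild type, vertical axis) against the mean signal over the 6 E13.5 arrays (horizontal log axis) for the 15726 members. Red and blue points are the 36 higher and 98 lower calls at the study thresholds, and black bars are the median of all members in each signal range, which falls from -0.05 at 100 to 200 to -0.25 at 1600 and above.

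Cd99, which encodes a cell surface glycoprotein and belongs to the genes that lie in the pseudoautosomal region of most other mammals, fell. Its signals were 322, 306 and 349 in wild type and 126, 141 and 139 in Atrx-null forebrain. No Atrx-null array came near the lowest wild type array. The log2 fold change was -1.37 ± 0.13 (SE; limma adjusted p = 0.0062), but when blocked by littermate pair its adjusted p was 0.102 and no member passed. The other 2 Cd99 probe sets among the members were called at -1.23 and -1.05 on the log2 scale, with limma adjusted p of 0.158 and 0.0696. The brightest probe set and the one at -1.05 carry the suffix that the array maker gives to probes which may also bind other transcripts.

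Probe set 1436320_at, which has no gene symbol in the annotation used here, had the second smallest p of all members. The study likened its transcript to Dhrsxy, another pseudoautosomal gene. It gave 555, 499 and 756 in wild type and 189, 183 and 172 in Atrx-null forebrain. The Atrx-null arrays lay close together and far below the wild type ones, at a log2 fold change of -1.82 ± 0.23 (SE; limma adjusted p = 0.0587). The list of ancestral pseudoautosomal genes was chosen by the study on these samples, so its direction is not independent evidence. Of its 11 genes 3 are members. Shox2, a homeobox gene, was called at -1.96 but scattered widely, with 220, 217 and 88.9 in wild type and 153, 64.4 and 9.09 in Atrx-null arrays. The Atrx-null mean of Shox2 was 75.5, so it is a member only through its wild type arrays. Gtpbp6, a GTP-binding protein, had 0.35 and was not called. Csf2ra, a subunit of the GM-CSF receptor, was below the signal threshold with a mean of 58.1, but was called lower at the study thresholds.

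The other lower members with the smallest p have varied known functions. Nol6, a nucleolar protein of ribosome assembly, gave 293, 316 and 395 in wild type and 167, 160 and 199 in Atrx-null arrays. The groups were separate, and its log2 fold change was -1.03 ± 0.15 (SE; limma adjusted p = 0.0941). A second Nol6 probe set did not share the difference, with -0.28 and overlapping arrays. Elovl2, which elongates polyunsaturated fatty acids, had signals of 476, 463 and 492 against 302, 267 and 314 in Atrx-null forebrain. Replicates of both groups agreed closely, and the log2 fold change was -0.81 ± 0.18 (SE; adjusted p = 0.325). Further members named by the same rule were Myg1, a mitochondrial exonuclease (-0.71), Adamts3, a procollagen-processing protease (-0.76), Slc20a2, a phosphate transporter (-0.73, with -0.17 on its other member probe set), Pip4k2b, a phosphoinositide kinase (-0.68), and Zdhhc14, a palmitoyltransferase (-1.0, with -0.17 on the other), with adjusted p from 0.385 to 0.566. Nufip2, Kbtbd13, Gatd1 and Gm13889 had -0.65, -0.62, -0.66 and -0.76, and a second Nufip2 probe set had -0.19. Adamts3, with an Atrx-null mean of 87.1, is a member only through its wild type arrays. Of the 15 lower genes named by rule, 4 lost the study thresholds under each of the 3 other scalings, namely Gatd1, Kbtbd13, Nufip2 and Pip4k2b, and without wild type replicate 2 Adamts3, Gatd1, Pip4k2b and Slc20a2 did.

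Genes of the ganglionic eminences and interneurons were the lowest of the gene lists with 8 or more members. Of 34 genes listed, 29 were on the array with a name and 19 were members. Over all 29, whatever their signal, 28 had a log2 fold change below 0, where 59.8% of the 18192 genes measured did, and 9 were called lower and none higher, where 1.94% of genes were called lower. Their median was -0.49, against -0.06 over the genes measured. Nxph1 and Nxph2 are among the genes called lower. The study had already reported both genes as lower in these samples. The list was made with earlier results of these data known, so its share of calls is not independent evidence. The same holds for the other lists described below. The 19 members were all below 0, with 6 called lower and a median of -0.50 (-0.36, -0.77 and -0.40 in the 3 pairs), but Slc32a1, Npy and Olig2 are members only through their wild type arrays. The order by role began with the factors that specify ventral progenitors.

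Gsx2, a homeobox factor of lateral ganglionic eminence progenitors, gave 151, 156 and 206 in wild type and 128, 104 and 91.8 in Atrx-null arrays. The groups did not overlap, and the log2 fold change was -0.77 ± 0.27 (SE; limma adjusted p = 0.674). Dlx5, a homeobox factor that acts downstream of Dlx1 and Dlx2 in differentiating interneurons, gave 324, 538 and 487 against 223, 242 and 268, again without overlap, with a log2 fold change of -0.96 ± 0.28 (SE; adjusted p = 0.53). Dlx6os1, the noncoding transcript opposite Dlx6, had 377, 531 and 463 against 315, 348 and 289 and a log2 fold change of -0.62. Dlx6 itself was not a member. Dlx1 and Dlx2, the first Dlx genes of the ventral progenitors, had -0.63 and -0.50 with overlapping arrays and were not called.

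Of the genes that make a neuron GABAergic, Gad1 and Gad2, the 2 glutamate decarboxylases that synthesize GABA, were both called. Gad1 gave 216, 591 and 387 in wild type and 153, 315 and 254 in Atrx-null arrays, so the genotypes overlapped, yet the Atrx-null array was below its littermate in each pair. Its log2 fold change was -0.78 ± 0.35 (SE; limma adjusted p = 0.798). Gad2 had 205, 388 and 335 against 162, 276 and 190, overlapping in the same way, and -0.66 ± 0.25 (SE; adjusted p = 0.722). Slc32a1, the vesicular GABA transporter, had -0.48 and was not called.

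Sst, the peptide somatostatin of a class of cortical interneurons, had the largest difference of the list. It read 162, 372 and 227 in wild type and 46.7, 119 and 146 in Atrx-null arrays. The lowest wild type array was just above the highest Atrx-null array, and the log2 fold change was -1.46 ± 0.40 (SE; limma adjusted p = 0.489). Lhx6, the homeobox factor of interneurons from the medial ganglionic eminence, had -0.85 with wild type signals that themselves ran from 71.6 to 288, and was not called. Npy, the peptide neuropeptide Y, had -0.64, and Olig2, Vax1 and Maf, transcription factors of the same territory, had -0.49, -0.46 and -0.42. Sox6, Zeb2 and Satb1, which are also used outside these cells, were nearest to the other genes, at -0.14, -0.16 and -0.22.

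**Figure D2:**
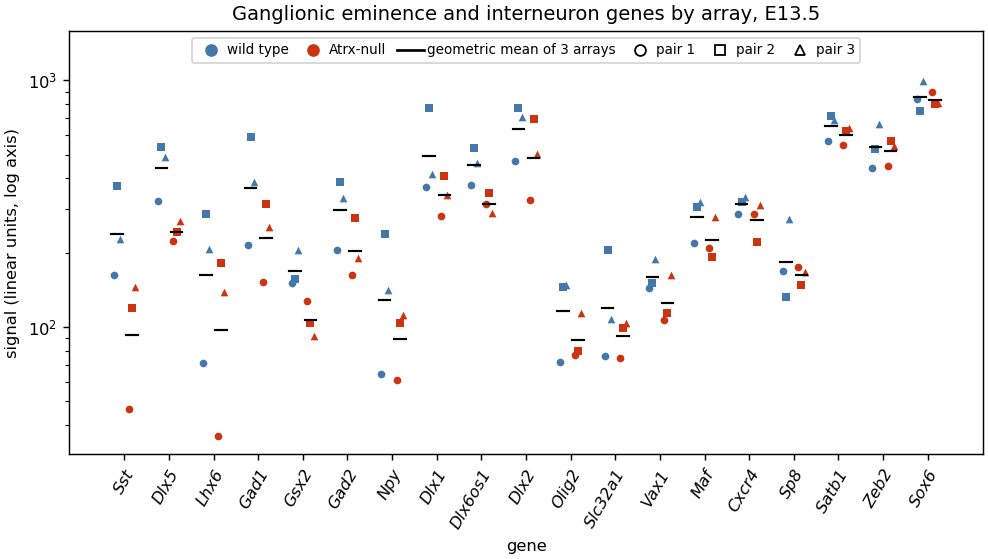
Signal (vertical log axis, linear signal units) of the 19 member genes of the ganglionic eminence and interneuron list in each of the 6 E13.5 arrays, ordered by log2 fold change from Sst at -1.46 to Sox6 at -0.14. Blue is wild type, red is Atrx-null, symbols mark the littermate pair and black bars the geometric mean of 3 arrays. Pair 1 (circles) was low in both genotypes for Sst, Lhx6, Gad1 and Npy.

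These genes also varied between embryos of the same genotype. The 29 genes measured summed to a signal of 5510, 8594 and 7742 in wild type and 4810, 6037 and 5840 in Atrx-null forebrain. Wild type replicate 1 was thus within the range of the Atrx-null arrays, although every Atrx-null array was below its own littermate. The difference in the list was present in each fit that left out an array, but its size moved: the median was -0.34 without wild type replicate 2, where Dlx6os1, Gad1 and Gad2 lost their calls, and -0.80 without wild type replicate 1, where 11 genes were called. The list had 3 calls without wild type replicate 3, where Gsx2, Gad1 and Gad2 lost theirs, and 4 without Atrx-null replicate 1 or 3. Gad1 and Gad2 lost their calls without Atrx-null replicate 1 and in the E13.5 arrays alone. Without Atrx-null replicate 3 Gsx2, Dlx6os1, Gad1 and Gad2 lost theirs, and other genes of the list were called. After quantile normalization, on the signals as deposited and with centring on the well-measured probe sets, Sst, Dlx5 and Gsx2 kept their calls and the other 3 lost theirs. Blocking by littermate pair kept all 6. Genes of the neighbouring diencephalon, which a dissection can include or leave out, were lower as well. Of 30 listed 29 were measured, whatever their signal, 24 of them below 0 and 7 called lower, with a median of -0.35, and 5 were members. Over all genes measured 59.8% were below 0 and 1.94% were called lower. The summed signal of the 29 measured was 3555, 5074 and 3800 in wild type and 3477, 3284 and 3013 in Atrx-null arrays. Its part in the values of the interneuron list was not tested. Tcf7l2, a Wnt pathway factor abundant in the thalamus, was called at -1.44 but ran from 121 to 709 in wild type and from 66.8 to 226 in Atrx-null arrays.

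The start regions of the called member genes of this list are shown as description only. The genes were picked by their calls, none of which was higher, so their shared direction follows from the choice. Gsx2 and Dlx5 among them encode homeobox factors. RefSeq sequences of GRCm38.p6 covered 5 of the 6 genes, with 2 start sites for Dlx6os1, and none was given for Dlx5. The 250 bases before the start are printed 5′ to 3′ on the gene's strand for Gsx2 at chr5:75075351-75075600 (plus strand), Dlx6os1 at chr6:6869534-6869783 and chr6:6861684-6861933 (minus strand), Gad2 at chr2:22622077-22622326 (plus strand) and Sst at chr16:23890845-23891094 (minus strand). Capitals mark matches to TAATTA, the core that many homeodomains bind, and to CANNTG, the E-box of basic helix-loop-helix factors, both of which read the same on either strand.
Gsx2: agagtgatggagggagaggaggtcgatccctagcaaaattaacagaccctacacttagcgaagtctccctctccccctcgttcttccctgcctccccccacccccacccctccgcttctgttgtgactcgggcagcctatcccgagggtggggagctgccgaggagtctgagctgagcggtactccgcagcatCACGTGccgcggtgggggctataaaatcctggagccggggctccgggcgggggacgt
Dlx6os1, first start site: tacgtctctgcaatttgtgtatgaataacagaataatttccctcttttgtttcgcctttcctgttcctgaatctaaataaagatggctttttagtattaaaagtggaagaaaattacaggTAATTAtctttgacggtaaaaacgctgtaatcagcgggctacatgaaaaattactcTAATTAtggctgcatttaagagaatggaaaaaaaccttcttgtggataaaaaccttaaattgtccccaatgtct
Dlx6os1, second start site: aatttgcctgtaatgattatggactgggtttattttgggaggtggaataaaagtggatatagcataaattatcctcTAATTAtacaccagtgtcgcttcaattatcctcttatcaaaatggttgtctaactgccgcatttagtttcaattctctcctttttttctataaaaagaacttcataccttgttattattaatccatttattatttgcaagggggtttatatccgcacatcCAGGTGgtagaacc
Gad2: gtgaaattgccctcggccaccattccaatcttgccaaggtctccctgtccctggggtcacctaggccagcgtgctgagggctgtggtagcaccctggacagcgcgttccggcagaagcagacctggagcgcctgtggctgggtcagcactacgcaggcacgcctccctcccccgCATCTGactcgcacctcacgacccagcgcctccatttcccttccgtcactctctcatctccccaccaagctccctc
Sst: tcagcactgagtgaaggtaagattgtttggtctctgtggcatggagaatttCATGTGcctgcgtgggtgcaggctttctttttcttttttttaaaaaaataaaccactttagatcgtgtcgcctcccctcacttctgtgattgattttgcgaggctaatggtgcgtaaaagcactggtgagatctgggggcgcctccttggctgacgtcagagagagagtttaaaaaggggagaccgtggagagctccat
TAATTA occurred 2 times before the first and 1 time before the second start site of Dlx6os1 and was not found before Gsx2, Gad1, Gad2 or Sst. Over all 32851 windows of the table, 4.84% held it in their 250 upstream bases. CANNTG occurred 1 time in each of the windows except the first of Dlx6os1, and 66.2% of all windows held it. A match of letters is no evidence of binding, and no match in these windows says nothing of sites elsewhere.

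Genes of cortical projection neurons had a median a little below that of all genes. Of 30 listed 26 were members, 23 of them below 0 and 3 above, where 27.6% of the 8907 genes were above, with 2 called lower and none higher and a median of -0.23 (-0.28, -0.42 and 0.00 in the 3 pairs). Without wild type replicate 2 the median was -0.14 with 7 of 26 above 0, and under the 3 other scalings it was -0.14 to -0.10 with 1 call. Pou3f1, a POU factor of developing cortical neurons, gave 311, 385 and 387 in wild type and 205, 222 and 177 in Atrx-null arrays. The groups were clearly apart, with a log2 fold change of -0.95 ± 0.18 (SE; limma adjusted p = 0.182). Its relative Pou3f2, which acts in upper-layer neurons and their progenitors, was called on a dimmer probe set at -0.62 and not on its brightest, at -0.87 with wide scatter. Lmo3, a LIM-only cofactor, was called at -0.61, a call lost under the 3 other scalings and without wild type replicate 1 or Atrx-null replicate 1. The main fate factors of deep layers were not called. Tbr1 had -0.01, with 801 to 818 in wild type and 850 to 877 in Atrx-null arrays, while Fezf2 had -0.15 and Bcl11b -0.42. Pair 3 gave no median difference for this list, and its 28 measured genes summed to 16979 to 20239 in wild type and 16124 to 17496 in Atrx-null arrays.

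Progenitor identity genes were mostly measured and mostly close to the shift of all genes. Of 30 radial glia genes 28 were members, none was called, and the median was -0.17. Pax6, Emx1 and Lhx2, which pattern dorsal progenitors, had 0.05, 0.05 and 0.00, and Sox2 and Nes, a stem cell factor and a filament protein of progenitors, had -0.31 and -0.20. Ccnd1, the cyclin of the first gap phase, was the member of the list with the smallest p: its signals were 1248, 923 and 1291 in wild type and 1085, 667 and 814 in Atrx-null arrays, overlapping between genotypes but lower in each pair, at -0.55. A dimmer Ccnd1 probe set was called at -0.88, and the third had -0.43. This call was lost after quantile normalization, in the E13.5 arrays alone and without wild type replicate 1 or 3. It was also lost without Atrx-null replicate 2, at -0.41. Hes5, a Notch target that keeps progenitors undifferentiated, had -0.44 and Sox1 -0.38, and neither was called. A second Sox1 probe set had -0.87, also without a call. The median of the radial glia list changed sign to 0.04 after quantile normalization.

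Among 21 members of the list of intermediate progenitors and neurogenic factors, 19 were below 0 and the median was -0.23, but pair 3 had 0.07. Cbfa2t3, a corepressor that neurogenic factors induce, was the single call, and is a member only through its wild type arrays, with 129, 181 and 113 in wild type and 96.4, 103 and 85.5 in Atrx-null arrays and a log2 fold change of -0.65 (limma adjusted p = 0.602). Eomes, the T-box factor that marks intermediate progenitors, had -0.24 with pairs at -0.48, -0.58 and 0.35, and the proneural factors Neurog2 and Neurod1 had -0.02 and 0.01. Sox11 and Sox4, which drive expression of neuronal genes, had -0.53 and -0.36 and were bright, up to 3291 and 4358. The other 5 Sox11 member probe sets did not share a direction, with log2 fold changes from -0.57 to 0.56. Insm1, a zinc finger factor of the transition from progenitor to neuron, differed by probe set, with -0.21 on the brightest and a call at -0.74 on the other. A dimmer Sox4 probe set was likewise called, at -0.61.

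Striatal projection neuron genes had a median of -0.23 over 12 members and no call among the brightest probe sets. Foxp1, a forkhead factor of striatal and cortical neurons, gave 490, 489 and 538 in wild type and 419, 371 and 403 in Atrx-null arrays. The groups did not overlap, but at -0.45 the difference stayed under 1.5-fold (limma adjusted p = 0.575). All 6 Foxp1 probe sets among the members were lower, from -0.74 to -0.20, and one of them was called. Zfhx3, a zinc finger factor of striatal and other neurons, had -0.72 on its brightest probe set and was called on 2 of its 4 member probe sets, at -0.61 and -0.71. Without wild type replicate 2 these were -0.36 and -0.37. In the opposite direction, a probe set of Meis2 was called higher at 0.64. It gave 124, 129 and 108 in wild type and 208, 189 and 207 in Atrx-null arrays, and its call was lost without wild type replicate 3.

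No gene of DNA replication or mitosis was called on its brightest probe set. Of 48 replication genes 45 were members, 44 of them below 0, with a median of -0.15 and a range from -0.51 to 0.00. The lowest was E2f1, a transcription factor of S phase entry, whose dimmer probe set was called at -0.63, and Pcna, the sliding clamp of the polymerases, had -0.32 with pairs at -0.35, -0.80 and 0.20. The E2f1 call was lost under each of the other scalings. Mcm2 and Mcm5 of the replicative helicase had -0.13 and -0.07. Of 48 mitosis genes 47 were members, with a median of -0.12 and a range from -0.55 for Pttg1, the securin that holds sister chromatids together, to 0.18 for Kif23, a kinesin of cell division. Mki67, the marker of cycling cells, had 1508, 1338 and 1424 in wild type and 1508, 1366 and 1590 in Atrx-null arrays, a log2 fold change of -0.04 with overlapping groups. Both medians lie near the -0.10 of all genes, and quantile normalization moved them to -0.03 and 0.02.

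**Figure D3:**
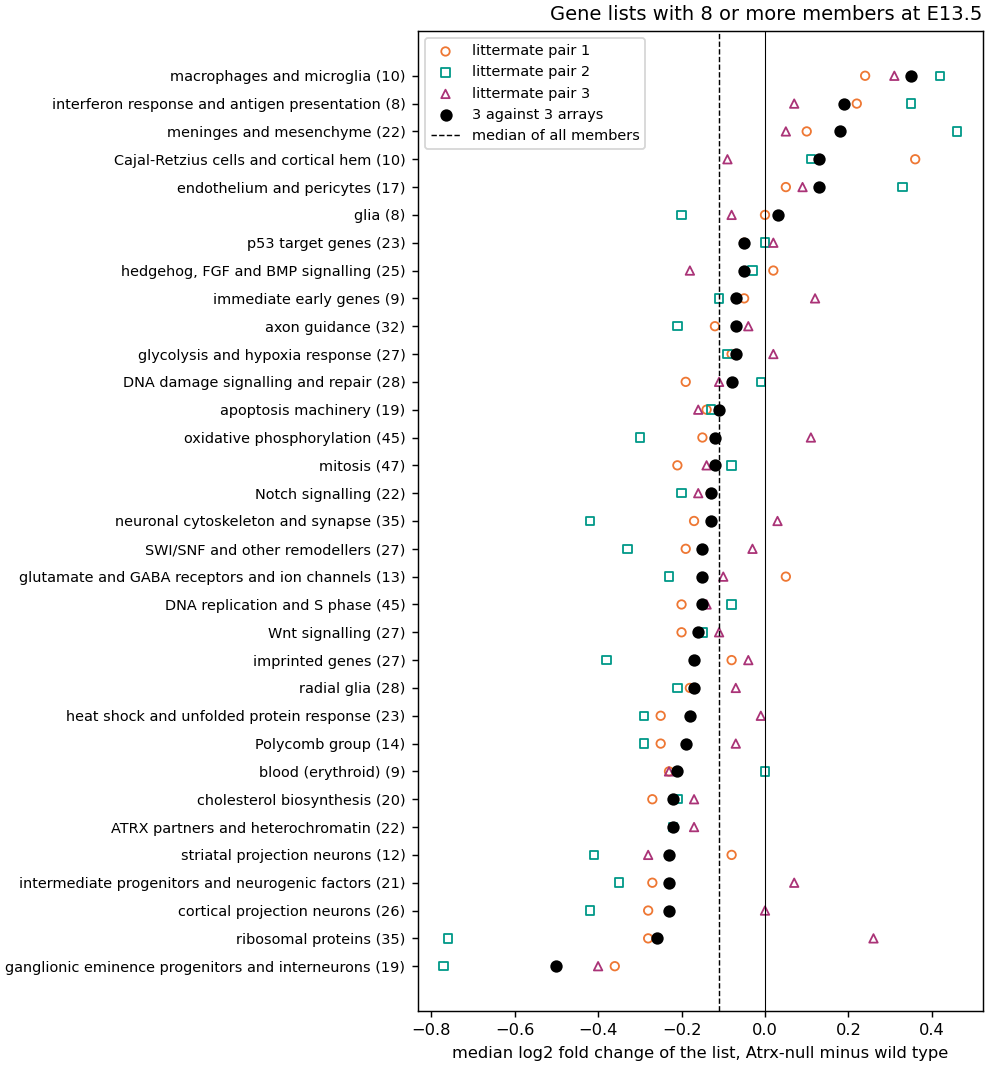
Median log2 fold change (horizontal axis, Atrx-null minus wild type) of each gene list with 8 or more members, with the number of member genes in brackets. Black dots compare 3 with 3 arrays, open symbols are the 3 littermate pairs, and the dashed line is the median of all members, -0.11. The ganglionic eminence and interneuron list lies at -0.50 and the macrophage list at 0.35.

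Targets of p53 included 2 of the 25 genes called higher, which are 0.281% of the 8907 genes. Ccng1, a cyclin induced by p53, gave 279, 285 and 337 in wild type and 441, 536 and 527 in Atrx-null arrays. The genotypes were separate, and the log2 fold change was 0.63 ± 0.16 (SE; limma adjusted p = 0.426), with 0.47 and 0.55 on its other 2 member probe sets. Phlda3, which restrains AKT signalling after p53 activation, had 113, 100 and 124 against 161, 193 and 209, also separate, and 0.63 ± 0.17 (SE; adjusted p = 0.457). The call of Phlda3 was lost without wild type replicate 2, and both were lost without Atrx-null replicate 3. Cdkn1a, the cell cycle inhibitor p21, had 0.49 with overlapping arrays and was not called, while Bbc3, a death-promoting BCL2 family member, had 0.28 and Mdm2, the p53 ubiquitin ligase, -0.22. Over the 23 members of the list 10 were above 0, where 27.6% of the 8907 genes were, and the median was -0.05. Of the 35 genes measured, whatever their signal, 21 were above 0, where 40.2% of the 18192 genes measured were. Their median was 0.04, against -0.06. Called higher were 5, where 2.04% of genes were, namely Ccng1, Phlda3 and the dim Eda2r, Sesn2 and Dcxr, and none was called lower. None of the 19 member genes of the apoptosis machinery and none of the 28 of DNA damage signalling and repair was called, with medians of -0.11 and -0.08.

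Markers of macrophages and microglia were mostly higher. Of 37 listed 35 were measured, whatever their signal, and 30 of these were above 0, where 40.2% of the 18192 genes measured were. Their median was 0.33, against -0.06. Called higher were 6, where 2.04% of genes were, namely Apoe and the dim Aif1, Ptprc, Mpeg1, C1qa and C1qb, and called lower were the dim Itgam and Cd14. The 10 members had a median of 0.35, with 0.24, 0.42 and 0.31 in the pairs, but 4 of them, Apoe, Ctss, Mrc1 and Laptm5, had wild type means below 100 and are members only through the Atrx-null arrays. The other 6 had a median of 0.25. Apoe, a lipid carrier made by macrophages and glia, gave 69.2, 103 and 108 in wild type and 256, 249 and 214 in Atrx-null arrays. The lowest Atrx-null array, 214, was far above the highest wild type array, 108, and the log2 fold change was 1.28 ± 0.20 (SE; limma adjusted p = 0.12). Ctss, a lysosomal protease of phagocytes, had 79.9, 91.4 and 104 against 119, 148 and 146, separate but under 1.5-fold at 0.48. Csf1r, the receptor on which macrophages depend, had 0.41 on its brightest probe set but -0.05 and 0.10 on its other 2, Mrc1, the mannose receptor, 0.50, and Pf4, a chemokine of border macrophages and platelets, 0.51, and none was called. Further defining markers, among them Aif1, Cx3cr1, Trem2 and Tyrobp, had mean signals below 100 and are not members. The summed signal of the 35 genes measured was 3178, 3346 and 3647 in wild type and 4331, 4939 and 4811 in Atrx-null arrays, without overlap.

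Vessel and meningeal genes had medians above 0 that were smaller. Over all genes measured 40.2% were above 0, 2.04% were called higher and 1.94% lower. Of 31 genes of endothelium and pericytes measured 26 were above 0, with a median of 0.13 and no call, and the 17 members had the same median. The 4 with the smallest p were Abcc9 and Pdgfrb of pericytes (0.44 and 0.42), Vtn, a matrix protein of pericytes (0.57), and Tek, the endothelial angiopoietin receptor (0.36), while the endothelial genes Cldn5, Cdh5 and Kdr had 0.07, 0.02 and -0.25. Of 31 genes of the meninges and mesenchyme measured 26 were above 0, with a median of 0.20 and 3 called higher, Col6a1 and the dim Aldh1a2 and Lama2. The 22 members had a median of 0.18. Col6a1, a chain of collagen VI that is a member only through its Atrx-null arrays, gave 83.0, 53.9 and 92.5 in wild type and 133, 155 and 134 in Atrx-null arrays, with separate groups and a log2 fold change of 0.80 ± 0.27 (SE; limma adjusted p = 0.649). Dcn, the matrix proteoglycan decorin, had 0.55, and Foxc1, a forkhead factor of the meninges, 0.45. The medians rest in part on wild type replicate 2. Without it the meningeal list had a median of 0.08 with 13 of 22 above 0 and Col6a1 lost its call, the vessel list had 0.11 with 9 of 17 above 0, and the 10 macrophage members had 0.29. Summed signals of the meningeal list overlapped, at 7968 to 11876 in wild type and 10817 to 12936 in Atrx-null arrays. Interferon response and antigen presentation genes had a median of 0.16 over the 26 measured, 14 of them above 0, with 4 called higher and 1 lower, all dim except Ifitm3. The 8 members had 0.19. Ifitm3 was called at 0.61, a call lost under each other scaling, and Irf9, a transcription factor of the response, had 0.47 and was not called. Of 23 genes of muscle and surface epithelium measured, 15 were above 0, where 40.2% of all genes measured were, with a median of 0.16, and 2 were members. Epcam and the dim Myh3 were called higher and the dim Myod1 lower. Their summed signal was 1061, 804 and 954 in wild type and 1209, 1321 and 1277 in Atrx-null arrays, without overlap. In the newborn arrays, which are other animals, the medians of the macrophage, vessel and meningeal lists were 0.37, 0.15 and 0.63.

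**Figure D4:**
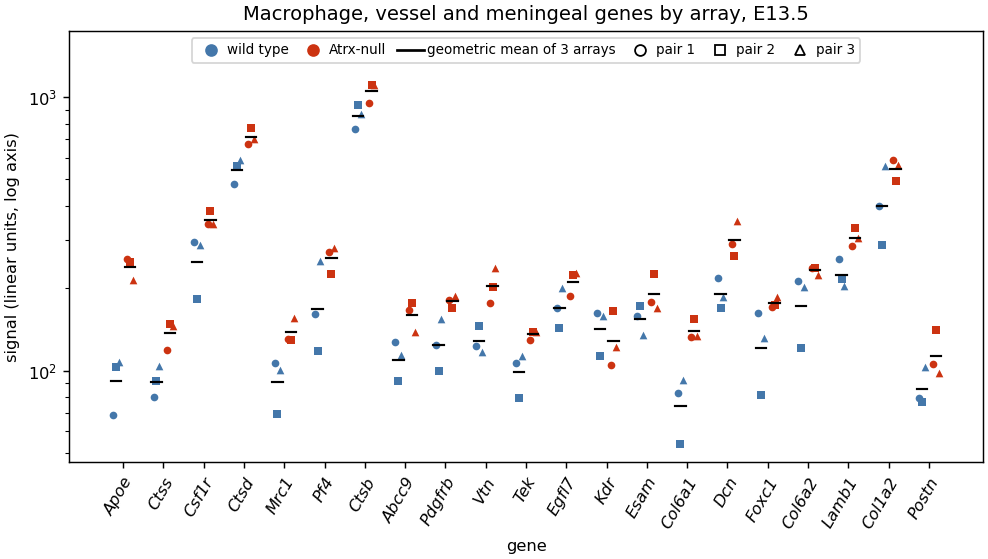
Signal (vertical log axis, linear signal units) in each of the 6 E13.5 arrays for the 7 member genes with the smallest p of the macrophage list (Apoe to Ctsb), the endothelium and pericyte list (Abcc9 to Esam) and the meningeal list (Col6a1 to Postn). Blue is wild type, red is Atrx-null, symbols mark the littermate pair and black bars the geometric mean of 3 arrays. Apoe is the gene with the widest gap, from 69.2 to 108 in wild type to 214 to 256 in Atrx-null arrays.

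Other higher members came from many functions. Pcdh20, a protocadherin of neurons, gave 69.7, 77.1 and 51.2 in wild type and 131, 202 and 146 in Atrx-null arrays. The groups were far apart, and the log2 fold change was 1.16 ± 0.21 (SE; limma adjusted p = 0.158). Cav1, the coat protein of caveolae, had 256, 166 and 278 against 387, 399 and 475 and 0.77 (adjusted p = 0.406), a call that was lost without wild type replicate 2. Rnf213, a large ubiquitin ligase linked to vessel disease, had 0.68, Cry2, a repressor of the circadian clock, 0.73, and Kcnip1, a potassium channel subunit, 0.68. Commd5 and Hdac11, a COMM domain protein and a histone deacetylase, had 0.87 and 1.22 (a second Hdac11 probe set had 0.10), with wild type replicate 2 the lowest of their wild type arrays at 243 and 124. Hoxa5, a homeobox gene of the hindbrain and trunk, was called at 1.18 on a probe set whose wild type signals ran from 50.5 to 195. Epcam, an epithelial adhesion protein, had the largest log2 fold change of all calls, 2.18, but its wild type arrays gave 170, 25.6 and 9.98 and its pairs did not share a direction. Pcdh20, Rnf213 and 1700003E16Rik, with wild type means of 66.0, 96.5 and 73.6, are members only through their Atrx-null arrays, as is Epcam. All 15 higher genes named by rule kept the study thresholds under each of the other scalings and with the block, but the E13.5 arrays alone lost Hoxa5 and Stap2, and leaving out single arrays lost Stap2 in 3 fits, Kcnip1 and Phlda3 in 2, and Cav1, Ccng1, Col6a1, Cry2, Tmem18 and 1700003E16Rik in 1.

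Cajal-Retzius cells, the early neurons of the cortical surface that secrete reelin, and the cortical hem from which many of them come formed a list with a median above 0, at 0.13 over 10 members and 0.07 over the 18 genes measured, 10 of them above 0 and none called. Reln, the reelin gene, gave 1332, 1359 and 1140 in wild type and 1787, 1845 and 1535 in Atrx-null arrays, separate groups at a log2 fold change of 0.33. Ebf2, a member only through its Atrx-null arrays, and Trp73, transcription factors of these cells, had 0.54 and 0.40. The pairs gave 0.36, 0.11 and -0.09, and without wild type replicate 1 the median was 0.03 with 5 of 10 above 0.

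Signalling lists held isolated calls. Lfng, a glycosyltransferase that tunes Notch receptors, was called lower at -0.68 among 22 Notch genes, and Tcf7l2 was the call among 27 Wnt genes, where Axin2 and Lef1, a feedback target and a nuclear factor of the pathway, had -0.38 and -0.50. The medians of the Notch and Wnt lists were -0.13 and -0.16. The Lfng call was lost under each other scaling and in the E13.5 arrays alone. It was also lost without Atrx-null replicate 1 or 2 or wild type replicate 3. None of 25 genes of hedgehog, FGF and BMP signalling was called, at a median of -0.05. Grik3, a kainate receptor subunit, was called at -0.69 and Sema3f, a repulsive guidance cue, at 0.81, the latter with 1174 and 840 in Atrx-null replicates 1 and 2 but 395 in replicate 3, within the wild type range of 345 to 427.

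In newborn forebrain the same members were called at other frequencies, with 205 past the study thresholds (1.3%), 129 higher (0.82%) and 76 lower (0.483%), and 5 past an adjusted p of 0.05 (0.0318%, limma). The newborn arrays came from other animals. Of the 98 members called lower at E13.5, 7 were called lower at P0.5, which is 7.14% of the first list and 9.21% of the second, and of the 36 higher 2 were higher, or 5.56% and 1.55%. The 7 were the 3 probe sets of Cd99, 1436320_at, Sst, Gm13889 and Pou3f1, and the 2 were Ifitm3, an antiviral membrane protein, and Col6a1. A probe set of Sox5 was called in opposite directions, at -0.81 and 0.94, and so was 1447360_at, at 0.80 and -0.73. The interneuron list kept 18 of 19 genes below 0 in newborns, at a median of -0.32, where 69.4% of all members were below 0, whereas radial glia and cortical projection neuron genes had 0.09 and 0.08. By limma's test of the difference between the ages 0 of 15726 members passed an adjusted p of 0.05 (0.0%) and 315 an unadjusted one (2.0%). Nol6 was nearest among the genes named here, at -1.03 and 0.05 (adjusted p = 0.505), followed by Zic1, a zinc finger factor of the septum, diencephalon and meninges, at -0.33 and 0.92 (adjusted p = 0.598). For the lists the difference between the ages was not tested.

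**Figure D5:**
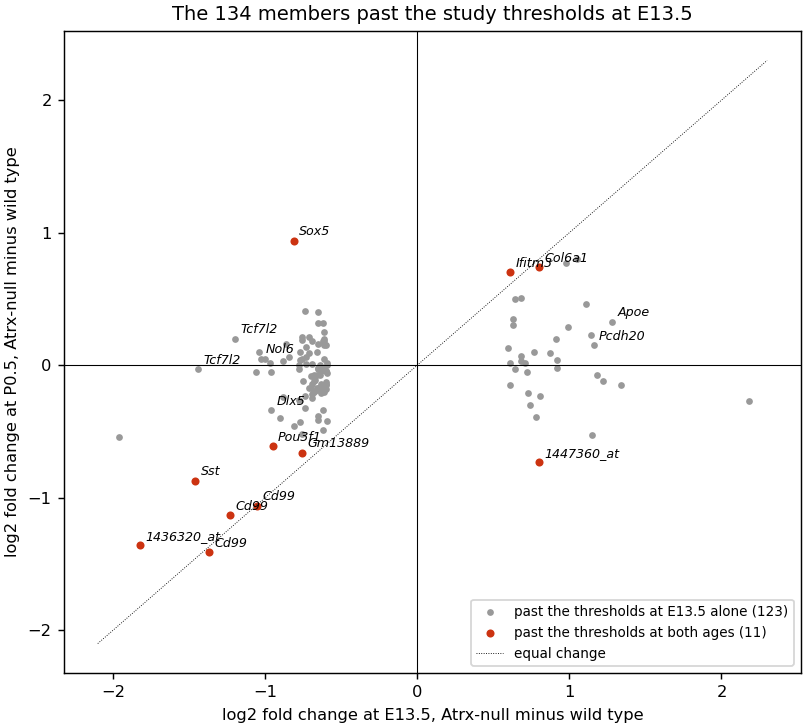
Log2 fold change at P0.5 (vertical axis) against that at E13.5 (horizontal axis), both Atrx-null minus wild type, for the 134 members past the study thresholds at E13.5. Red points passed the thresholds at both ages and the dotted line marks equal change. The points were chosen by their E13.5 values, so a smaller spread on the vertical axis follows from the choice, and Cd99 lies near the line while Nol6 and Apoe lie near 0 on the vertical axis.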

How the data were processed

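RNA from male forebrain was hybridised by the authors to Affymetrix mouse genome arrays. The deposited values are signal intensities computed by the authors with GCOS 1.4 and scaled to a target of 150, and the per-chip median scaling their methods describe was applied here. The RMA preprocessing and the per-gene normalization to controls in their methods were not applied. Median signals of the E13.5 arrays were 40.1 to 45.1, and the number of arrays limits the precision. Control probe sets (64) were left out. The log2 of each signal was centred on the array's median, and limma 3.58.1 (R 4.3.3) fitted 4 groups of age and genotype over 13 arrays, with Benjamini-Hochberg adjustment over all probe sets except the 7 of Atrx, which were kept in a separate fit of the same kind. Probe sets were named from the platform annotation (34945 with 1 symbol, 932 with several, 9160 with none), and a gene was represented by its brightest probe set. The genes named were Atrx, the ancestral pseudoautosomal genes, the 15 higher and 15 lower genes of smallest p with 1 direction in all pairs, and up to 4 members of each of 38 lists. Any other gene was picked with its values in view. The members and lists were chosen with earlier results of these data known. Pairs come from the labels. Deviations of littermates from their group means correlated over all probe sets at 0.234, -0.0673 and 0.0994, and over members at 0.605, 0.033 and 0.13. Wild type and Atrx-null arrays of different replicate number had -0.263 to 0.162 over all probe sets and -0.369 to 0.199 over members. Beyond pair 1 littermates were thus not more alike over members than the closest of these. Pools of forebrains are stated for E13.5 only, and p-values measure the spread between arrays of both ages. The scripts were tested on simulated data. Alternatives were other scalings, filters, variance models, the littermate block and leaving out each array.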

Additional observations from a re-analysis of the deposited data

How the results depend on the processing

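The count of 134 calls, 36 higher and 98 lower, moved with the scaling: 62 and 44 after quantile normalization, 92 and 43 on signals as deposited, and 83 and 47 when centred on well-measured probe sets, a choice made after seeing the data. The E13.5 arrays alone gave 81 (22 and 59). A mean signal of 50 gave 271 (115 and 156, with 53 at 2-fold), and one of 200 gave 71 (11 and 60, with 7 at 2-fold). Leaving out single arrays gave 100 to 331 calls, 26 to 79 higher, 54 to 274 lower, and 18 to 52 at 2-fold. An adjusted p under 0.05 (limma) was reached by 1 to 3 members when an array was left out, by 5 with an offset of 16, without dim probe sets or with an intensity trend, by 2 with array weights, without moderation or at a mean signal of 50, and by 0 in the E13.5 arrays alone. The littermate pair as a replicate block gave 152 calls and 0 past an adjusted p, so that Cd99 and Atrx lost theirs. The test between ages, with 0 members, gave 1 after quantile normalization, on signals as deposited, with the offset, without dim probe sets, with the trend and with array weights. After quantile normalization, as deposited and centred on well-measured probe sets, list medians were 0.04, -0.07 and -0.08 for radial glia, -0.03, -0.04 and -0.05 for replication, 0.02, -0.01 and -0.03 for mitosis, and 0.46, 0.46 and 0.45 for macrophages, which had 0.25 with all probe sets of a gene averaged. Leaving out arrays gave -0.28 to -0.05 for radial glia, -0.80 to -0.34 for interneurons, -0.23 to -0.09 for replication and -0.20 to -0.05 for mitosis. Single genes changed sign: Cycs at 0.06 after quantile normalization and, when arrays were left out, Alas2 (-0.39 to 0.01), Hba-x (-0.53 to 0.08) and Eif2s3y (-0.16 to 0.20). The causes were not tested. Dim transcripts were measured less precisely, with a median moderated SD of 0.431 outside the members and 0.24 within.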

Other observations

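On their brightest probe sets, chromatin genes mostly lay close to the shift of all genes. All 27 member genes of SWI/SNF and other remodellers had a log2 fold change below 0, at a median of -0.15, and so did 21 of 22 ATRX partners and heterochromatin genes, at -0.22, where 72.4% of the 8907 genes were below 0 and their median was -0.10. Ehmt1, a histone H3 methyltransferase, gave 1148, 1083 and 1069 in wild type and 838, 932 and 947 in Atrx-null arrays, separate groups at -0.39. Trim28, a corepressor, and Daxx, the histone chaperone that binds ATRX, had -0.35 and -0.15, and none of these was called. Cbx1, also of the heterochromatin list, had -0.34 on its brightest probe set and was not called there. A dimmer Cbx1 probe set was called at -1.06, with 196, 175 and 215 in wild type and 103, 155 and 63.5 in Atrx-null arrays. That call was kept under the other scalings and without any single array. Pcgf2, a Polycomb ring finger protein, was called at -0.70 (lost without wild type replicate 2, at -0.57, or Atrx-null replicate 1, at -0.47), with 182, 261 and 238 against 108, 166 and 181, so that the highest Atrx-null array lay just below the lowest wild type array.

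Ribosomal protein genes, the brightest list at a median signal of 3290, had a median of -0.26, with -0.28 and -0.76 in pairs 1 and 2 but 0.26 in pair 3. Oxidative phosphorylation genes had -0.12, with pair 3 at 0.11. Cholesterol synthesis genes had -0.22 over 20 members at both ages, with no call at E13.5 and Insig1, a regulator of the pathway, at -0.50. Among 27 imprinted genes Magel2, a ubiquitin ligase regulator, was the call, at 0.61 (lost when any one wild type array or Atrx-null replicate 2 was left out), with 205, 194 and 163 in wild type and 269, 403 and 263 in Atrx-null arrays, while Igf2r and Grb10, which restrain growth, had -0.46 and -0.36. Red cell genes had a median of -0.21 over 9 members, and the 21 measured summed to 8294 to 10753 in wild type and 7194 to 10979 in Atrx-null arrays. The 10 genes next to Atrx on the X chromosome had log2 fold changes from -0.37 to 0.21, and none reached an unadjusted p of 0.05.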
